A study of Mus musculus with 7 samples.

Results

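The genes described here encode the nuclear subunits of the 5 complexes of oxidative phosphorylation. They were picked by name alone: rows called Ndufa, Ndufb, Ndufc, Ndufs, Ndufv or Ndufab with a number were taken for complex I, Sdha to Sdhd for complex II, Uqcr genes and Cyc1 for complex III, Cox4 to Cox8 genes for complex IV and Atp5 genes for complex V. This gave 84 of the 50435 gene rows of the table, namely 37 genes for complex I, 4 for complex II, 9 for complex III, 17 for complex IV and 17 for complex V. A few names do not match present assignments. Ndufa4 is now counted as a subunit of complex IV, Cox7a2l helps to join complexes into supercomplexes, and Atp5s and Atp5sl are not counted as subunits of the ATP synthase. All 13 subunits encoded by mitochondrial DNA are listed at 0 in every library, so the genes below are nuclear ones only.

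The libraries hold RNA of mouse marrow cells that were sorted as sinusoidal endothelium, the lining of the venous vessels of the marrow. The gate kept CD31+ Sca1- cells without stain for CD11b, Gr1, Ter119 or CD45. All recipients were irradiated wild-type mice that had been given marrow from Zbtb46-dtr donors, so the diphtheria toxin receptor was carried by donor blood cells that use Zbtb46, a gene of classical dendritic cells, and by no cell of the host. Diphtheria toxin, 200 ng in PBS (DT, 3 libraries), or PBS alone (PBS, 4 libraries) was injected 8 weeks after transplantation, and marrow was taken 1 day later. The controls thus carried the same graft. The labels call the samples biological replicates; age, sex and strain are not given in the labels used here. Levels are in RPM, reads of a gene per 1e6 reads of a library. The smallest step between values put the depth at 33195021 to 51245260 reads per library, and 3 reads correspond to 0.0585 to 0.0904 RPM, which covers counting error only.

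Complex I passes electrons from NADH, and complex II from succinate, to ubiquinone. Complex III moves them on to cytochrome c and complex IV to oxygen, and the proton gradient that complexes I, III and IV build drives ATP synthesis by complex V. In marrow, red cell precursors hold many mitochondria, and mature neutrophils few; neutrophils rely largely on glycolysis. The promoters of many nuclear subunit genes carry sites for NRF1 and for ETS-family factors such as GABP.

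Since many of these genes are held to share such promoter sites, stretches of 60 bases upstream of the start of 7 of them are given, 5′ to 3′ on the coding strand, from RefSeq for build GRCm38.p6. Ndufa11, Sdhd, Uqcr11, Cox6a1 and Atp5e, of complexes I to V in turn, were picked among genes that hold a motif. They therefore do not represent their complexes. The capitals mark the first match to the letters GCATGCGC (NRF1) or CCGGAAG (ETS), or to their reverse complements. In Ndufa11 and Cox6a1 the capitals are the reverse complement, and GCATGCGC itself overlaps them and runs on into lower case. Ndufv3 and Cox6b2 are shown because their changes, given below, lay far from the median of their complex; neither stretch holds either motif.
Ndufa11, chr17:56717676-56717735, + strand: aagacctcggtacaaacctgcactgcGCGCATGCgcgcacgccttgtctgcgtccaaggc
Sdhd, chr9:50603862-50603921, - strand: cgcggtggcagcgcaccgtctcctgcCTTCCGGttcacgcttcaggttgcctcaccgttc
Uqcr11, chr10:80406854-80406913, - strand: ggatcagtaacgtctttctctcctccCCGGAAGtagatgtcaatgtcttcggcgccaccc
Cox6a1, chr5:115349087-115349146, - strand: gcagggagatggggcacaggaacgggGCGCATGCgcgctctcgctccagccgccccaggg
Atp5e, chr2:174464170-174464229, - strand: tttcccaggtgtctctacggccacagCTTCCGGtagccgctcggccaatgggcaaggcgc
Ndufv3, chr17:31520055-31520114, + strand: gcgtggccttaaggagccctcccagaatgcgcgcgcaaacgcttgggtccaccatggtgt
Cox6b2, chr7:4753095-4753154, - strand: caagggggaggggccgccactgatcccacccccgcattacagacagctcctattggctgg

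Promoters of 300 bases, from 250 before to 50 after the RefSeq start, were matched for 67 of the 84 genes. On either strand, GCATGCGC stood in 14.9% of them (10 genes). It stood in 6.11% of the 9250 tested genes that have a promoter entry and in 3.05% of all 27025 genes that have one. CCGGAAG stood in 23.9% (16 genes), against 21.1% and 9.93%. AAGATGG, the YY1 motif, stood in 14.9% (10 genes), against 8.61% and 7.28%, and TATAAA in 10.4% (7 genes), against 8.64% and 15.7%. The ETS letters were thus about as common in these promoters as in those of tested genes at large. Motifs were searched separately, and a promoter may hold several. These are matches of letters and not bound sites.

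After DT, 20 of 37 tested genes fell in complex I, 4 of 9 in complex III, 12 of 15 in complex IV and 8 of 17 in complex V, and no gene of complex II passed the test. Of the 84 genes, 82 reached the mean of 1 RPM required for testing; Cox7b2 and Cox8c, testis isoforms of complex IV subunits, are listed at 0 in all 7 libraries. In a limma fit over all 14100 tested genes, at a Benjamini-Hochberg adjusted p under 0.05, 44 of the 82 were lower in DT (53.7%), 0 were higher and 38 did not pass. The same fit called 18.6% of all tested genes lower and 13.4% higher. At an unadjusted p under 0.05, 60 were lower and 1, Ndufv3, was higher. The fitted difference (DT minus PBS, on the log2(RPM + 1) scale) was negative for 77 genes, with a median of -0.52 against -0.23 over all tested genes. Genes past the threshold were 1.37-fold to 8.33-fold lower by their mean RPM. In 60 of the 82 every DT library lay below every PBS library, which held for 24.7% of all tested genes; in 2, Ndufv3 and Cox8b, every DT library lay above, which held for 16.1%.

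**Figure D1:**
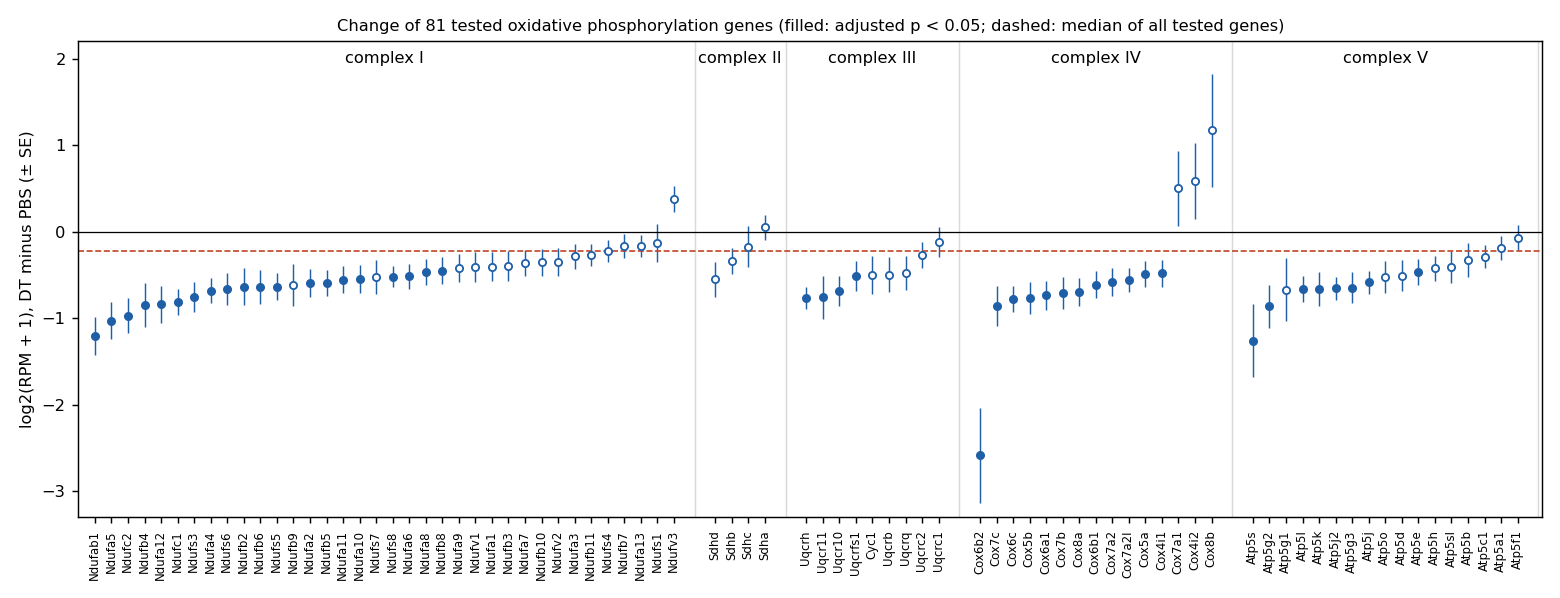
Fitted difference, DT minus PBS, in log2(RPM + 1) (vertical axis) of 81 tested genes, grouped by complex and ordered by size, with its standard error as a bar; filled points passed the adjusted p of 0.05 and the dashed line is the median of all tested genes, -0.23. Of the 81 points 76 lie below 0, all 44 filled ones among them, and Ndufv3, Sdha, Cox7a1, Cox4i2 and Cox8b lie above 0.

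The number past the threshold depended on the libraries and on scaling. It was 64, 37, 38 and 28 without PBS replicates 1, 2, 3 and 4, and 23, 20 and 12 without DT replicates 1, 2 and 3. With median-ratio size factors it was 13 of 82 (15.9%) against 9.37% of all tested genes, with 7, 1, 4 and 1 in complexes I, III, IV and V. This scaling shifted the median of all tested genes from -0.23 to -0.02 and that of the subunit genes from -0.52 to -0.29, so the gap between them stayed at -0.27 against -0.29. Over all genes, 58.1% of calls were lower and 41.9% higher, and 35.8% and 64.2% with median-ratio scaling. In the alternatives tried the gap between the medians ran from -0.50, with no filter on the mean, to -0.20, without PBS replicate 2. In all 17 alternatives 10 genes passed: Ndufa4, Ndufa5, Ndufab1, Ndufc1, Ndufc2, Ndufs3, Uqcrh, Cox6b2, Cox6c and Atp5j2.

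The PBS libraries differed among themselves, whereas the DT libraries were close together. The 84 genes summed to 10526, 15393, 11875 and 12925 RPM after PBS replicates 1 to 4 and to 9268, 9168 and 9199 RPM after DT replicates 1 to 3. The mean was 12680 ± 2058 RPM after PBS (SD, n = 4) and 9212 ± 51.4 RPM after DT (SD, n = 3), or 27.3% lower, and the groups did not overlap. PBS replicate 1 was the lowest PBS library for 56 of the 82 tested genes, and PBS replicate 2 the highest for 73. For 20 genes PBS replicate 1 was at or below the highest DT library. On the log2(RPM + 1) scale PBS replicate 1 lay below the PBS mean for 70 of the 82 genes. Leaving it out raises the PBS mean of those 70 genes, so calls gained without it are no separate support.

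**Figure D2:**
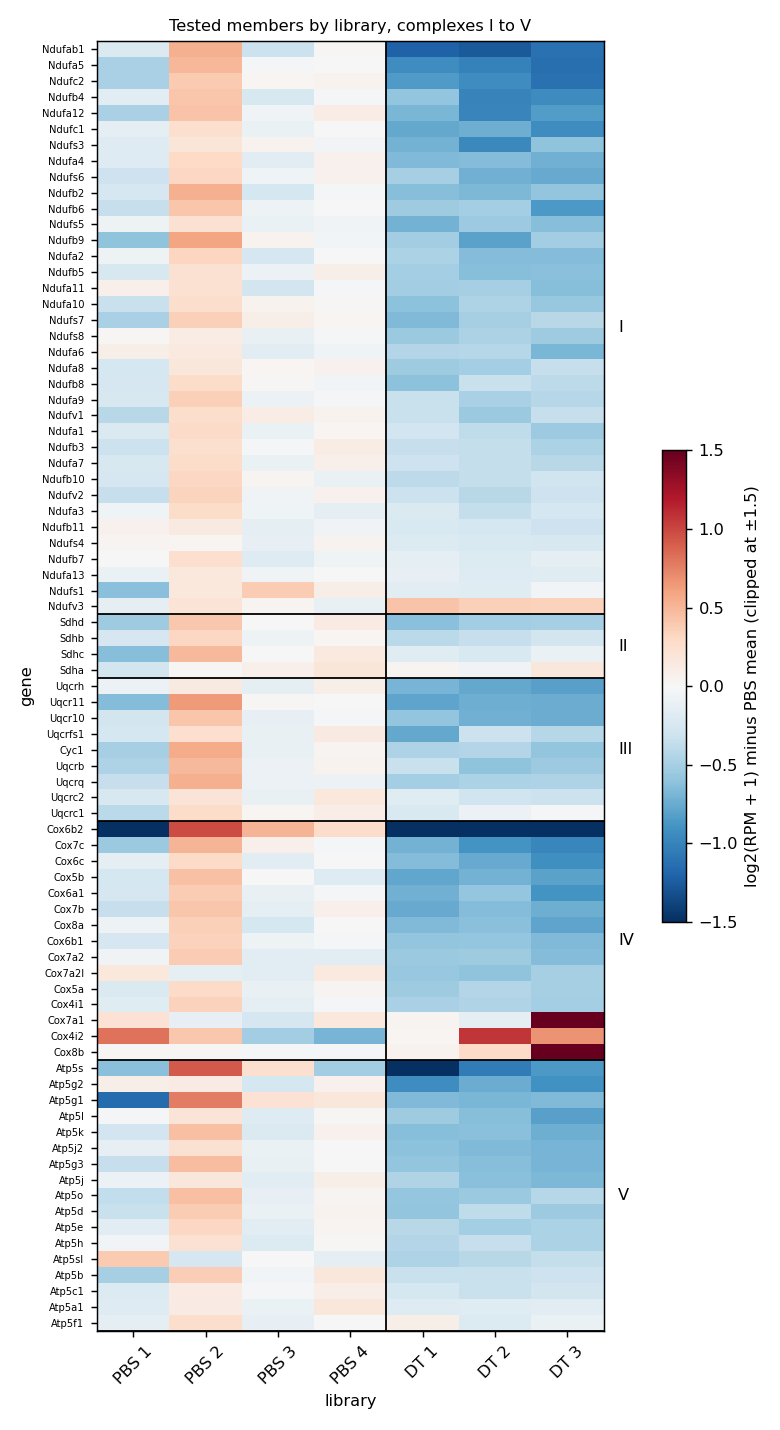
Log2(RPM + 1) of 81 tested genes (rows, complexes I to V from top to bottom) in each library (columns), as the difference from the gene's PBS mean, with colours clipped at 1.5 in either direction; red is above the PBS mean and blue below. The DT columns are blue in most rows, PBS replicate 2 is red in most rows, and PBS replicate 1 is pale blue, with 70 of all 82 tested genes below the PBS mean.

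Markers of several blood cell types moved with the groups, and the endothelial list apart from Pecam1 was low in all libraries. Of the 14 endothelial genes looked at, Pecam1, which encodes the CD31 of the gate, was at 61.0 to 107 RPM, and the other 13 summed to 3.87 to 12.5 RPM after PBS and 10.7 to 18.7 RPM after DT. Emcn was listed at 0 in 5 libraries, Cldn5 and Flt4 in 4, and Tek, Tie1 and Robo4 in 3. The highest value among the 13 was 5.07 RPM, for Esam in DT replicate 2. Of the 5 endothelial genes that reached the mean for testing, 1 rose, Flt1, a receptor for VEGF. It went from 0.206 ± 0.284 RPM (SD, n = 4) to 2.08 ± 0.688 RPM (SD, n = 3, adjusted p = 0.00956). The other 4 did not pass. Plvap was lower in DT, at 1.71 ± 1.38 and 0.148 ± 0.236 RPM (adjusted p = 0.0963). Esam and Cdh5 were higher (adjusted p = 0.0995 and 0.169), and Pecam1 hardly differed. Neutrophil markers summed to 2078 to 4657 RPM after PBS and 61026 to 65458 RPM after DT, and all 14 rose. Monocyte and macrophage markers summed to 425 to 909 and 7158 to 8974 RPM, and all 10 rose. The 8 T and natural killer cell markers summed to 53.0 to 122 and 364 to 380 RPM, and 7 rose. Most of that sum in DT was Nkg7, at 15.6 to 48.4 RPM after PBS and 257 to 294 RPM after DT, and Cd2 did not pass. B cell markers summed to 6304 to 10893 and 5068 to 6144 RPM, and 8 of 11 fell; megakaryocyte markers summed to 51.9 to 214 and 50.7 to 153 RPM, and 0 of 5 passed. Erythroid markers summed to 1057, 11569, 7635 and 7061 RPM after PBS replicates 1 to 4 and to 1579, 2093 and 1823 RPM after DT. Of the 15 erythroid markers 11 fell and 3, Hbb-bs, Hba-a1 and Alas2, rose, so the sum mixes both directions. In PBS replicate 1 Car1 and Car2 were at 230 and 418 RPM, above DT (45.1 to 103 and 134 to 230 RPM). Hbb-bs and Hba-a1 were there at 133 and 58.5 RPM, below DT (825 to 1109 and 380 to 509 RPM). Among PBS libraries, replicate 1 thus had the lowest erythroid sum and the lowest level of most subunit genes. The part of these shifts in the subunit results was not tested. In such bulk samples, fewer cells of a type and less RNA per cell cannot be told apart.

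In complex I, the NADH dehydrogenase, 20 of 37 genes were lower in DT, with a median of -0.52 on the log2 scale, and 29 did not overlap between groups with DT lower. Ndufab1, the mitochondrial acyl carrier protein that is also a subunit, had the smallest p. It was at 41.0, 69.6, 38.2 and 48.4 RPM after PBS and at 20.0, 19.4 and 21.5 RPM after DT. All PBS libraries lay above all DT libraries, and the mean was 2.43-fold lower (log2 difference -1.20 ± 0.22 SE, adjusted p = 0.00301). Ndufab1 lies on chr7:122085403-122101886 (mm10, - strand).

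Ndufc1 and Ndufc2, small membrane-arm subunits, both fell. Ndufc1 was at 77.4, 102, 79.5 and 85.3 RPM after PBS and 49.8, 51.0 and 44.3 RPM after DT (-0.81 ± 0.15, adjusted p = 0.00329). Ndufc2 was at 96.9, 179, 139 and 141 RPM after PBS and 75.04, 70.5 and 61.9 RPM after DT (-0.97 ± 0.20, adjusted p = 0.00565). For Ndufc2, PBS replicate 1 was nearer to the DT libraries than to the other PBS libraries.

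Among the remaining supernumerary subunits, which surround the catalytic core, Ndufa5 was at 52.6, 105, 73.1 and 74.4 RPM after PBS and 38.3, 36.1 and 33.4 RPM after DT, 2.12-fold lower. Ndufa4, placed here by name but now counted with complex IV, was at 224, 316, 229 and 268 RPM after PBS. After DT it was at 162, 164 and 155 RPM (-0.68 ± 0.15, adjusted p = 0.00777). By name family, 8 of 13 Ndufa genes, Ndufab1 left aside, and 5 of 10 Ndufb genes fell, and all 13 Ndufa genes were without overlap.

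The other 13 complex I genes that fell, all supernumerary, were Ndufa2, Ndufa6, Ndufa8, Ndufa10, Ndufa11, Ndufa12, Ndufb2, Ndufb4, Ndufb5, Ndufb6, Ndufb8, Ndufs5 and Ndufs6, and their folds ran from 1.37 to 1.92. Ndufa12, which joins the complex late in its assembly, was at 44.6, 85.4, 61.0 and 68.0 RPM after PBS and 38.8, 31.2 and 34.8 RPM after DT (adjusted p = 0.0157). Ndufb4, of the membrane arm, was at 12.3, 18.8, 11.5 and 13.7 RPM after PBS and 8.79, 6.38 and 6.73 RPM after DT (adjusted p = 0.0302). Neither gene overlapped between groups. None of the 13 passed without DT replicate 3. Ndufb8 passed by the smallest margin (adjusted p = 0.04997) and did not pass in 14 of the 17 alternatives.

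Among the complex I genes that did not pass, some passed once PBS replicate 1 was left out and others differed little. That library was the lowest in PBS for 24 of the 37 genes, so leaving it out raised their PBS mean. Ndufb9 was at 91.9, 211, 145 and 135 RPM after PBS and 97.0, 79.8 and 96.9 RPM after DT (-0.62 ± 0.24, adjusted p = 0.0781), and without PBS replicate 1 its adjusted p was 0.00615. Ndufs4, an accessory subunit needed for a stable complex, was at 87.4, 86.7, 77.9 and 88.0 RPM after PBS and 73.4, 72.6 and 71.5 RPM after DT (-0.22 ± 0.13, adjusted p = 0.201). Its groups did not overlap, yet its difference was no larger than the median over all tested genes. Ndufa13 and Ndufb7 differed by -0.16 and -0.17 (adjusted p = 0.363 and 0.39), and with median-ratio scaling Ndufs4, Ndufa13 and Ndufb7 were at 0.004, 0.067 and 0.066.

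The catalytic core of complex I carries the flavin and the iron-sulfur clusters, and levels of 3 of its genes are given. Ndufs8, a core subunit with iron-sulfur clusters, was at 204, 218, 188 and 201 RPM after PBS and 138, 145 and 140 RPM after DT (-0.52 ± 0.12, adjusted p = 0.00962). Ndufs3, another core subunit, was at 37.3, 48.8, 44.7 and 41.8 RPM after PBS and 25.98, 21.6 and 27.8 RPM after DT (adjusted p = 0.0092). Ndufs1, the largest core subunit, was at 69.7, 121, 142 and 115 RPM after PBS and 96.2, 95.7 and 105 RPM after DT (-0.13 ± 0.22, adjusted p = 0.683). Only PBS replicate 1 lay below its DT values. The core genes Ndufs7, Ndufv1 and Ndufv2 overlapped between groups as well and did not pass (adjusted p = 0.0649, 0.0996 and 0.134).

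Ndufv3, a small subunit attached to the flavoprotein arm, went the other way. It was at 45.5, 57.9, 51.5 and 46.2 RPM after PBS and at 67.5, 64.5 and 63.9 RPM after DT, with no overlap, 1.30-fold higher by the means (0.38 ± 0.15). It did not pass (adjusted p = 0.0751). It passed in 6 of the 17 alternatives, among them without PBS replicate 2 (adjusted p = 0.0352) and with median-ratio scaling (adjusted p = 0.0117), and the adjusted p ran from 0.0111 to 0.226 over all of them. Ndufv3 lies on chr17:31520115-31531331 (mm10, + strand). The count of complex I genes that fell was 12, 9 and 7 without DT replicates 1, 2 and 3, and 12 without PBS replicate 4.

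No gene of complex II, succinate dehydrogenase, passed the test; the enzyme is also part of the citrate cycle. Sdha, the flavoprotein that oxidises succinate, was at 201, 246, 255 and 274 RPM after PBS and 248, 234 and 272 RPM after DT (0.05 ± 0.14, adjusted p = 0.814). The groups overlapped fully, and the sign turned to -0.04 without PBS replicate 1 and to -0.01 without DT replicate 3. Sdhb, the iron-sulfur subunit, was at 184, 272, 208 and 223 RPM after PBS and 166, 173 and 181 RPM after DT, without overlap (-0.34 ± 0.15, adjusted p = 0.112). Sdhc and Sdhd anchor the enzyme in the membrane. Sdhc was at 73.7, 162, 115 and 128 RPM after PBS and 101, 98.0 and 108 RPM after DT (adjusted p = 0.601). Sdhd was at 200, 385, 291 and 316 RPM after PBS and 187, 202 and 205 RPM after DT (-0.55 ± 0.20, adjusted p = 0.0639). In Sdhc and Sdhd, PBS replicate 1 was at or below DT libraries. Without PBS replicate 1, Sdhd (adjusted p = 0.00253) and Sdhb (adjusted p = 0.0303) fell. Summed over the 4 genes, PBS replicate 1 (658 RPM) lay below all DT libraries (703 to 766 RPM), unlike in the other 4 complexes. Sdha lies on chr13:74322254-74350280 (mm10, - strand).

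In complex III, the cytochrome bc1 complex, 4 of 9 genes were lower in DT, with a median of -0.50. Uqcrh, the hinge subunit that docks cytochrome c, had the smallest p of all 82 genes. It was at 181, 210, 174 and 204 RPM after PBS and 118, 112 and 109 RPM after DT, 1.71-fold lower with no overlap (-0.76 ± 0.13, adjusted p = 0.00202). Uqcrh lies on chr4:116066965-116075071 (mm10, - strand). The small subunits Uqcr10 and Uqcr11 fell as well. Uqcr10 was at 145, 234, 160 and 172 RPM after PBS and 116, 105 and 104 RPM after DT (adjusted p = 0.0143). Uqcr11 was at 74.7, 183, 119 and 117 RPM after PBS and 67.5, 70.1 and 69.9 RPM after DT (adjusted p = 0.0438). PBS replicate 1 of Uqcr11 was close to the DT level. Uqcrfs1, the Rieske iron-sulfur protein, fell 1.43-fold (adjusted p = 0.0481).

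The abundant core proteins of complex III overlapped between groups. Uqcrc1 was at 313, 500, 424 and 445 RPM after PBS and 354, 389 and 406 RPM after DT (-0.12 ± 0.17, adjusted p = 0.628; 0.12 with median-ratio scaling). Uqcrc2 was at 172, 233, 188 and 228 RPM after PBS and 180, 165 and 163 RPM after DT (-0.27 ± 0.15, adjusted p = 0.189). Cyc1, cytochrome c1, was at 96.8, 203, 127 and 141 RPM after PBS and 99.4, 101 and 91.0 RPM after DT (-0.50 ± 0.22, adjusted p = 0.111). Uqcrb and Uqcrq, small subunits near the ubiquinone site, differed by -0.49 and -0.48 (adjusted p = 0.0954 and 0.0865). Without PBS replicate 1, Cyc1, Uqcrb and Uqcrq passed (adjusted p = 0.0145, 0.013 and 0.0221). The number of complex III genes that fell was 7 without PBS replicate 1, 2 without PBS replicates 2, 3 or 4 or DT replicate 1, and 1 without DT replicates 2 or 3. Uqcr11 and Uqcrfs1 did not pass without any 1 of DT replicates 1 to 3 or PBS replicates 2 to 4, nor Uqcr10 without DT replicates 2 or 3.

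In complex IV, cytochrome c oxidase, 12 of 15 tested genes fell, with a median of -0.61 and 12 without overlap. These 12 are all its genes that averaged 10 RPM or more, a split made after the values were seen. The differences ran from -0.48 for Cox4i1 to -2.58 for Cox6b2. Cox6c, a small subunit, was at 158, 213, 156 and 175 RPM after PBS and 110, 103 and 91.8 RPM after DT (-0.77 ± 0.15, adjusted p = 0.00423). Cox6a1, the widely expressed isoform of subunit VIa, was at 202, 315, 223 and 239 RPM after PBS and 145, 161 and 129 RPM after DT (adjusted p = 0.00973). Cox4i1, the main isoform of subunit IV, was at 468, 673, 481 and 523 RPM after PBS and 380, 387 and 374 RPM after DT (adjusted p = 0.037). All 3 were without overlap. The count for the complex was 6, 7 and 3 without DT replicates 1, 2 and 3. Cox4i1 did not pass when any DT replicate or PBS replicate 4 was left out (adjusted p from 0.0776 to 0.122), nor Cox6a1 without DT replicate 3 (adjusted p = 0.0541).

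Cox5a and Cox5b sit on the matrix side of complex IV, and Cox7b and Cox7c are small membrane subunits. Cox5b was at 63.0, 103, 76.2 and 66.3 RPM after PBS and 43.6, 46.0 and 43.0 RPM after DT (-0.76 ± 0.18, adjusted p = 0.0121). Cox7c was at 48.7, 102, 76.2 and 70.3 RPM after PBS and 43.7, 38.1 and 36.0 RPM after DT (-0.86 ± 0.23, adjusted p = 0.0184). Cox7b and Cox5a fell 1.67-fold and 1.42-fold (adjusted p = 0.0155 and 0.0305). None of the 4 overlapped, and none passed without DT replicate 3 (adjusted p from 0.0518 to 0.0991).

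Cox6b2, known as the testis isoform of subunit VIb, had the largest fitted difference of all 82 genes on the log2(RPM + 1) scale. By the ratio of means it was first among the genes that fell, and Cox8b, near 0 after PBS and given below, had a larger ratio. It was at 11.3, 81.4, 58.2 and 49.6 RPM after PBS and 7.25, 5.07 and 5.74 RPM after DT, 8.33-fold lower (-2.58 ± 0.55, adjusted p = 0.00646). PBS replicate 1 lay just above the DT libraries and far below the other PBS libraries. Per kilobase of exon, Cox6b2 made up 4.49%, 18.4%, 17.8% and 15.0% of the Cox6b1 and Cox6b2 level in PBS and 3.70%, 2.59% and 3.10% in DT. Cox6b1, the common isoform, fell too, 1.55-fold (adjusted p = 0.0153), although not without DT replicates 1 or 3. Cox6b2 lies on chr7:4751792-4753094 (mm10, - strand).

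**Figure D3:**
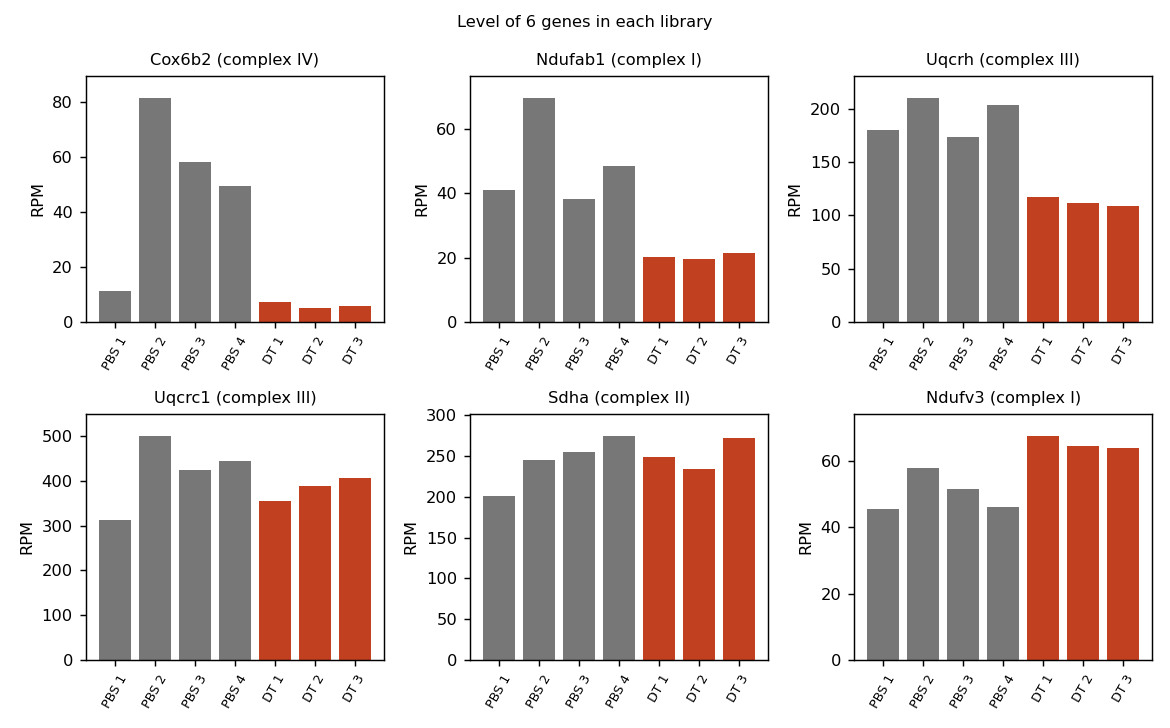
RPM in each of the 7 libraries for Cox6b2, Ndufab1, Uqcrh, Uqcrc1, Sdha and Ndufv3, with bars starting at 0, grey for PBS and red for DT. Cox6b2, Ndufab1 and Uqcrh are lower in every DT library, Uqcrc1 and Sdha overlap, and Ndufv3 is higher in every DT library, at 63.9 to 67.5 RPM.

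In the other isoform families of complex IV the minor genes Cox4i2, Cox7a1 and Cox8b reached at most 8.22 RPM. Per kilobase of exon, Cox4i1 made up 99.7% ± 0.363 of the Cox4i1 and Cox4i2 level in PBS (SD, n = 4) and 99.2% ± 0.449 in DT (SD, n = 3). Within the Cox7a genes, Cox7a2 made up 48.4% ± 6.48 in PBS and 47.5% ± 2.91 in DT, and Cox7a2l 51.1% ± 6.37 and 50.9% ± 1.16. Cox7a2 and Cox7a2l fell 1.52-fold and 1.48-fold (adjusted p = 0.0218 and 0.0129), and Cox8a, the common isoform of subunit VIII, fell 1.64-fold (adjusted p = 0.0101). Cox7a2 did not pass without any of the DT replicates, and Cox7a2l did not pass without DT replicates 1 or 2, nor Cox8a without DT replicate 3. Cox8b, the heart isoform of Cox8a, was at 0.030 and 0.026 RPM after PBS replicates 1 and 2, listed at 0 in PBS replicates 3 and 4, and at 0.050, 0.24 and 8.22 RPM after DT; its high mean in DT comes from DT replicate 3 alone (adjusted p = 0.194). Per kilobase of exon, Cox8b made up at most 0.0348% of the Cox8 level in PBS and 0.0857%, 0.401% and 13.5% in DT replicates 1 to 3. Cox7a1, the muscle isoform of Cox7a2, was at 0.53 to 1.11 RPM after PBS and 0.87, 0.64 and 4.57 RPM after DT, again highest in DT replicate 3 (adjusted p = 0.40). Cox4i2 was at 0.026 to 1.93 RPM after PBS and 0.69 to 2.497 RPM after DT (adjusted p = 0.329).

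In complex V, the ATP synthase, 8 of 17 genes were lower in DT, with a median of -0.52 and 13 without overlap. Atp5j2 (subunit f), Atp5l (subunit g) and Atp5j (coupling factor F6) belong to the membrane part and the stalk and had the smallest p. Atp5j2 was at 124, 158, 126 and 134 RPM after PBS and 88.0, 85.2 and 83.3 RPM after DT (-0.65 ± 0.14, adjusted p = 0.00573). Atp5l was at 88.3, 102, 77.8 and 90.5 RPM after PBS and 61.4, 56.8 and 50.3 RPM after DT (adjusted p = 0.00856). Atp5j was at 259, 310, 245 and 291 RPM after PBS and 201, 177 and 172 RPM after DT (adjusted p = 0.010003). None of the 3 overlapped between groups, and each was 1.51-fold to 1.59-fold lower. Without DT replicate 3, Atp5l and Atp5j did not pass (adjusted p = 0.0509 and 0.0564). Atp5k, subunit e, which holds ATP synthase dimers together, fell 1.63-fold (adjusted p = 0.0261), although not when any DT replicate or PBS replicate 4 was left out. Atp5o, the OSCP subunit that ties the head to the stalk, was at 181, 321, 215 and 242 RPM after PBS and 157, 159 and 174 RPM after DT, without overlap (-0.52 ± 0.19, adjusted p = 0.0566). Atp5h, subunit d of the stalk, was 1.35-fold lower without overlap (adjusted p = 0.0513). Without PBS replicate 1, Atp5o and Atp5h passed (adjusted p = 0.00994 and 0.0411).

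Atp5s and Atp5sl carry the Atp5 name only. Atp5s was at 6.24, 20.2, 12.3 and 6.78 RPM after PBS and 2.10, 4.40 and 5.17 RPM after DT, 2.92-fold lower (-1.26 ± 0.42, adjusted p = 0.0468). It passed without PBS replicates 1 or 4 and did not pass when any of the other 5 libraries was left out. Atp5sl was at 31.1 to 48.8 RPM after PBS and 26.7 to 28.8 RPM after DT (adjusted p = 0.126). Without Ndufa4, Atp5s and Atp5sl, 42 of 79 genes were lower, and the median stayed at -0.52.

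The F1 part of the ATP synthase, which holds the catalytic subunits, was described separately after the values were seen. Of its 5 genes, Atp5a1, Atp5b, Atp5c1, Atp5d and Atp5e, 1 fell, Atp5e (1.40-fold, adjusted p = 0.0393; not when any DT replicate or PBS replicate 4 was left out), and the median was -0.33. Of the other 12 genes 7 fell, with a median of -0.65. Atp5a1, the alpha subunit, had the highest RPM of all 84 genes, uncorrected for length, with 652, 809, 695 and 834 RPM after PBS and 648, 655 and 663 RPM after DT, and overlapped between groups through PBS replicate 1 (-0.18 ± 0.14, adjusted p = 0.34). Atp5b, the beta subunit, was at 471, 859, 649 and 752 RPM after PBS and 528, 528 and 539 RPM after DT (-0.33 ± 0.20, adjusted p = 0.227; without PBS replicate 1, adjusted p = 0.0157). Atp5f1, subunit b of the stalk, differed least (-0.07 ± 0.15, adjusted p = 0.748). The count for the complex was 14 without PBS replicate 1, 4 without PBS replicate 4, and 3, 3 and 1 without DT replicates 1, 2 and 3. The difference between the F1 genes and the other genes was not tested.

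Subunit c, which forms the rotating ring, is encoded by the 3 genes Atp5g1, Atp5g2 and Atp5g3. Atp5g3 was at 157, 276, 185 and 200 RPM after PBS and 132, 128 and 123 RPM after DT (-0.64 ± 0.18, adjusted p = 0.0238). Atp5g2 was at 8.44, 8.68, 6.42 and 8.31 RPM after PBS and 3.68, 4.32 and 3.76 RPM after DT (-0.86 ± 0.25, adjusted p = 0.0265). Atp5g1 was at 35.3, 137, 92.4 and 89.4 RPM after PBS and 50.1, 49.0 and 50.0 RPM after DT, and it overlapped because PBS replicate 1 lay below DT (-0.67 ± 0.37, adjusted p = 0.187; without PBS replicate 1, adjusted p = 0.00144). Per kilobase of exon, Atp5g3 made up 80.9% ± 3.08 of the 3 in PBS and 82.5% ± 0.513 in DT, Atp5g1 14.8% ± 4.26 and 14.2% ± 0.441, and Atp5g2 4.28% ± 1.22 and 3.29% ± 0.306. The SD in PBS came largely from PBS replicate 1, where Atp5g1 made up 8.53% and Atp5g3 85.5%. In PBS replicates 2 to 4 Atp5g1 made up 15.8% to 17.5% and Atp5g3 79.0% to 79.9%. The DT libraries, at 14.0% to 14.8% and 82.0% to 83.0%, lay between PBS replicate 1 and the other PBS libraries. These shares were not tested. Atp5g2 and Atp5g3 did not pass when any DT replicate or PBS replicate 4 was left out.

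Summed levels set the complexes side by side. Complex IV summed to 1943, 2744, 2019 and 2200 RPM after PBS and 1426, 1453 and 1381 RPM after DT, 36.2% lower. Complex I was 28.7% lower (3439 to 4860 RPM after PBS, 2858 to 2911 RPM after DT), complex III 26.8% (1329 to 2168 and 1246 to 1264 RPM) and complex V 23.2% (3156 to 4556 and 2886 to 2982 RPM). In these 4 complexes the groups did not overlap. Complex II was 17.9% lower, with overlap. Against PBS replicate 1 alone the DT mean was 0.731 times as high for complex IV, 0.837 for complex I, 0.928 for complex V, 0.946 for complex III and 1.102 for complex II. Complex IV was therefore the furthest below PBS in both views and complex II the least, and differences between complexes were not tested.

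**Figure D4:**
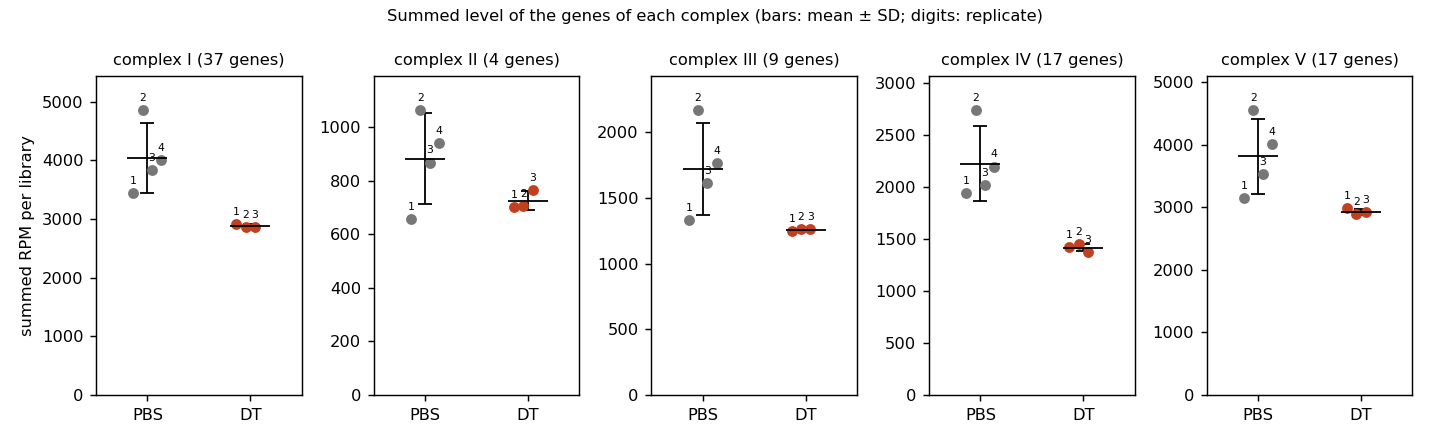
Summed RPM of the genes of each complex in each library (points, with the replicate number), with the group mean and SD as lines, PBS in grey and DT in red; each panel has its own axis starting at 0. The DT libraries lie below all PBS libraries in complexes I, III, IV and V, whereas in complex II PBS replicate 1, at 658 RPM, is the lowest.

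The genes differ in length, from 360 to 8086 bases of exon. Across the 76 genes that averaged 10 RPM or more and have a known exon length, the Spearman rho between the log2 difference and exon length was 0.323; it was 0.183 over all 81 with a length and -0.0203 over 13714 tested genes. These are descriptions across genes that share the same 7 libraries. Of the 40 shorter genes (360 to 1587 bases) 27 fell, with a median of -0.60, and of the 41 longer ones (1675 to 8086 bases) 17 fell, with a median of -0.48. Tested genes of all kinds that were no longer than the median subunit gene had a median of -0.29 (2687 genes), against -0.52 for the subunit genes.

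**Figure D5:**
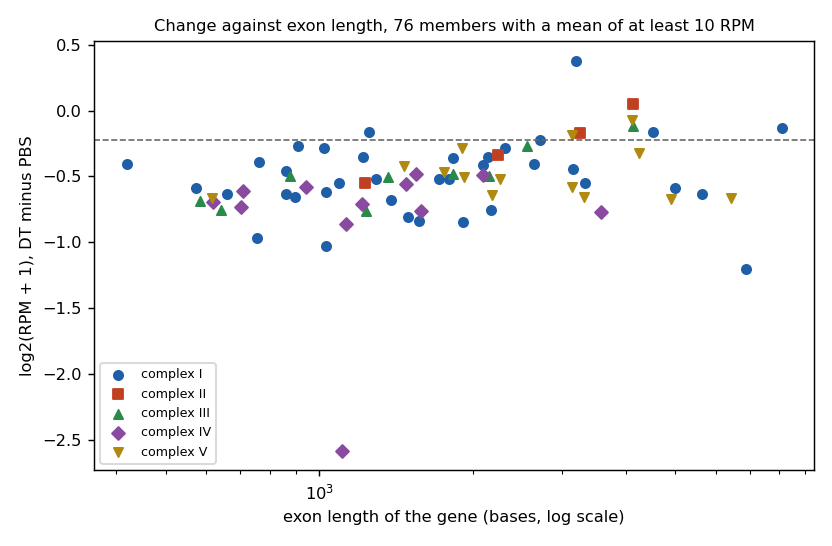
Log2 difference, DT minus PBS, against exon length on a log axis, for the 76 genes that averaged 10 RPM or more, with a symbol for each complex and the median of all tested genes as a dashed line. Most points lie below the dashed line, and the 2 genes above 0, Ndufv3 and Sdha, have 3189 and 4126 bases of exon.

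Genes for proteins that build, feed or regulate the complexes were taken in 9 lists. Of 112 tested ones 21 fell (18.8%, against 18.6% of all tested genes) and 1 rose, with a median of -0.35 against -0.23. The share that fell was thus that of tested genes at large, and the counts by list below are descriptions. The number that fell was 36 without PBS replicate 1, 13, 12 and 8 without DT replicates 1, 2 and 3, and 10 with median-ratio scaling. Among assembly factors, 3 of 15 fell for complex I (Timmdc1, Ndufaf8 and Ndufaf2), 2 of 4 for complex II (Sdhaf4 and Sdhaf2), 1 of 6 for complex III (Uqcc3) and 4 of 22 for complex IV, with Slirp, Cox20 and Lrpprc at the smallest p. Timmdc1, which helps to build the membrane arm, fell from 24.6 ± 3.96 RPM (SD, n = 4) to 10.8 ± 1.65 RPM (SD, n = 3; adjusted p = 0.00436). Slirp and Lrpprc, partners in stabilising mitochondrial mRNA, both fell (adjusted p = 0.0064 and 0.017). The mean of Slirp went from 54.1 ± 10.7 to 28.4 ± 1.85 RPM and that of Lrpprc from 28.6 ± 11.8 to 11.2 ± 1.15 RPM. Sdhaf4 fell from 40.4 ± 3.87 to 24.6 ± 0.527 RPM, although no subunit of its complex passed. Lrpprc did not pass without DT replicates 1 or 3, nor Sdhaf2; Ndufaf8 and Uqcc3 did not pass without any 1 of the DT replicates or PBS replicate 4, and Uqcc3 also not without PBS replicate 2. Ndufaf2 did not pass when any library other than PBS replicate 1 was left out.

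Of 5 genes for assembly and regulation of complex V, 1 fell. It was Atpif1, the inhibitor of ATP hydrolysis, at 155, 571, 367 and 326 RPM after PBS and 138, 125 and 116 RPM after DT (-1.34 ± 0.35, adjusted p = 0.0165). PBS replicate 1 lay just above DT, as for Cox6b2. Atpif1 did not pass without DT replicates 2 or 3 (adjusted p = 0.0533 and 0.0628).

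Among 12 electron carriers and exchangers, Slc25a3, the phosphate carrier, fell (225 ± 56.4 to 136 ± 20.8 RPM, adjusted p = 0.0289; not without DT replicates 1 or 3 or PBS replicates 3 or 4), and Gpd2 rose. Gpd2, the mitochondrial glycerol-3-phosphate dehydrogenase that feeds electrons to ubiquinone, was at 26.9, 39.7, 25.03 and 35.7 RPM after PBS and 77.5, 67.2 and 69.4 RPM after DT (1.16 ± 0.19, adjusted p = 0.00177). Coq7, a hydroxylase of ubiquinone synthesis, was the only one of 13 genes of that pathway that fell, from 82.7 ± 6.38 to 40.8 ± 4.26 RPM (adjusted p = 0.000839). Of 16 citrate cycle genes 1 fell, Pdhb of the pyruvate dehydrogenase complex (adjusted p = 0.0209; not without DT replicates 2 or 3 or PBS replicate 4), and their median was -0.15, above that of all tested genes. Of 19 genes for mitochondrial biogenesis and upkeep of the mitochondrial genome 7 fell, with a median of -0.51. Yy1, a transcription factor, was at 39.7 ± 5.98 RPM after PBS and 17.7 ± 3.99 RPM after DT (adjusted p = 0.00348). Tfb2m, a mitochondrial transcription factor, and Polrmt, the mitochondrial RNA polymerase, fell likewise, by 1.07 and by 1.03 on the log2 scale. The genes for NRF1 and GABP did not move as a set. Gabpa fell (-0.85, adjusted p = 0.0112), whereas Gabpb1 (-0.28, adjusted p = 0.377) and Nrf1 (-0.04, adjusted p = 0.892) did not pass. Gpd2, Coq7, Yy1, Tfb2m, Polrmt, Timmdc1, Slirp and Cox20 passed in all 17 alternatives.

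Promoter motifs were also set against the calls. Of the 40 matched genes that fell, 8 held GCATGCGC (20%), 12 CCGGAAG (30%), 6 AAGATGG (15%) and 1 TATAAA (2.5%). Of the 26 matched genes that were tested and did not pass, 2 held GCATGCGC (7.69%), 4 CCGGAAG (15.4%), 4 AAGATGG (15.4%) and 5 TATAAA (19.2%). The counts are small and the differences were not tested. Uqcr11 and Cox6a1, printed above, and Atp5k and Atp5l hold both the NRF1 and the ETS letters in their promoters and fell, and Sdhb holds both and did not pass. Ndufab1, Ndufc2 and Cox6b2, which fell by large amounts, hold none of the 4 motifs in these windows.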

How the data were processed

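The authors deposited 1 table of 50435 gene rows. Its values are read here as RPM, gene reads scaled by the authors to each library's total before deposit, although the table is named FPKM; an offset of 0.0001 was taken as 0. In each library 1029 to 1206 genes share the lowest step, across exon lengths whose quartiles lie at 462.5 to 668 and 3466 to 4246.5 bases, which values divided by length would not do. Of values up to 20 steps, 60.5% to 62.6% were whole within 0.02 of a step, so reads were not recovered. Column sums are 75.4% to 82.2% of the total that RPM implies. Libraries were made from 1 ng of RNA with 14 cycles of amplification and read as single reads of 50 bases, per the labels' protocols. Per the submitters' processing notes, the tools and build were STAR 2.5.3a, Partek and mm10. Which annotation was used, how reads that map to several places were treated and whether strand was used is not given in the sources used here. Subunit genes have many near-identical pseudogenes (7 rows of such names end in -ps), so reads may be split between them, and antisense reads cannot be told apart. A total of 26 rows have names turned into dates.

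The 14100 genes that averaged 1 RPM or more over the 7 libraries were fitted with limma 3.58.1 in R 4.3.3 on log2(RPM + 1) with a trend of the variance on intensity. The test of DT against PBS was two-sided, and p-values were adjusted by Benjamini-Hochberg over all these genes, with a threshold of 0.05. The pseudocount understates changes of low genes. Folds are ratios of group means. The step was checked on simulated data. Exon lengths and positions are from GENCODE vM21 on mm10; length is that of all exons of a gene joined, so levels per kilobase are approximate. Whether equal replicate numbers pair libraries was checked, and they were not treated as pairs. Alternatives covered pseudocount, filter, scaling, variance trend, sample weights, a replicate block and leaving out each library; 1, median-ratio scaling without PBS replicate 1, was added after seeing the data.

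The members, lists and rules were chosen with earlier results of these data known. Named genes were, per complex, the 3 with the smallest p and the 2 with the highest mean, all complex II genes and isoform families; per partner list, up to 3 past the threshold with the smallest p. All other subunit genes named, and Esam, Flt1, Plvap, Cdh5, Nkg7, Cd2, Car1, Car2, Gabpa, Gabpb1 and Nrf1, were added after their values were seen. Values of 2 genes are not reported here, and 1 of them is also left out of the counts. Proteins were not analysed here.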

Additional observations from a re-analysis of the deposited data

Results flagged for a closer look

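In 4 of 88 sets of 4 PBS values (each tested subunit gene and the sums), the highest or lowest library stood apart, with a gap that exceeds Dixon's critical value for 4 samples; by chance such a rule picks out about 1 set in 20. For Atp5g2, a gene for subunit c of the ATP synthase, PBS replicate 3 was at 6.42 RPM and the other PBS libraries at 8.31 to 8.68 RPM. For Ndufs4, of complex I, PBS replicate 3 was at 77.9 RPM and the others at 86.7 to 88.0 RPM. For Ndufa3 and Ndufs5, also of complex I, PBS replicate 2 was highest, at 147 RPM against 110 to 116 RPM and at 66.4 RPM against 52.3 to 54.4 RPM. All PBS libraries of these 4 genes lay above all DT libraries.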

How the results depend on the processing

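Direction held for most genes, and the number past the threshold did not. Against 44 subunit genes lower in DT and 0 higher, median-ratio scaling gave 13, no filter 28, no variance trend 28, and median-ratio scaling without PBS replicate 1 gave 27; leaving out 1 library gave 12 to 64. Pseudocount 0.1, a minimum mean of 5 RPM, quantile, upper-quartile scaling and sample weights gave 42, 47, 39, 38 and 64. Ndufv3 was the 1 gene called higher with median-ratio (also without PBS replicate 1), quantile and upper-quartile scaling and sample weights, and leaving out 1 library gave 0 to 1. The median of the subunit genes (-0.521) was -0.29 with median-ratio scaling; that of all tested genes (-0.227) was -0.023, and -0.011 also without PBS replicate 1, -0.021 with no filter and -0.157 with upper-quartile scaling. All genes lower (2622) numbered 1321 with median-ratio scaling, 1712 with no filter and 1208 to 3628 without 1 library.

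Complex I (20) had 7 with median-ratio scaling, 12 also without PBS replicate 1, 13 with no trend and 7 to 29 without 1 library. Complex II (0) had 2 with sample weights, 1 with median-ratio scaling without PBS replicate 1 and 0 to 2 without 1 library. Complex III (4) had 1 with median-ratio scaling, 2 with no filter, 2 with no trend, 7 with sample weights and 1 to 7 without 1 library. Complex IV (12) had 4, 7 also without PBS replicate 1, and 3 to 12. Complex V (8) had 1 with median-ratio scaling, 4 also without PBS replicate 1, 4 with no filter, 4 with no trend, 14 with sample weights and 1 to 14 without 1 library. With fewer libraries, the fit has fewer samples.

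With the replicate block, 20 subunit genes were lower (complexes I, III and V: 7, 2 and 3) and 1574 of all genes. Same-numbered libraries correlated at 0.0419, 0.0485 and 0.0103 in their deviations, and not every library correlated best with its own number, so the numbers were not taken as pairs.

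Signs turned for genes that did not pass. With median-ratio scaling, Atp5a1 was at 0.050, Uqcrc1 0.116, Sdhc 0.060, Ndufs1 0.10, Atp5f1 0.163, Ndufa13 0.067, Ndufb7 0.066 and Ndufs4 0.004. Also without PBS replicate 1, Atp5a1 was at 0.018, Uqcrc1 0.012, Atp5f1 0.151, Ndufa13 0.063, Ndufb7 0.099, Ndufb11 0.015 and Ndufs4 0.049. Atp5f1 was at 0.011 with upper-quartile scaling and -0.149 to 0.019 without 1 library. Sdha was at -0.017 with sample weights and -0.040 to 0.110 without 1 library. The cause was not tested. Levels near 3 reads (0.0585 to 0.0904 RPM), as for Cox8b in PBS, are at the limit of the depth.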
